A study of Homo sapiens with 6 samples.

Results

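The DLK1-MEG3 imprinted locus on human chromosome 14 was described in RNA that co-purified with the RNA helicase DDX5. Its members were the 5 genes DLK1, MEG3, RTL1, MEG8 and MEG9, listed by name among the 62700 genes of GENCODE version 44. A peak interval of a deposited list belonged to a member when its summit, the position of highest signal, lay in that gene's body. By this rule 39 of 93198 intervals belonged to the 5 genes, and 45 lay between the start of DLK1 and the end of MEG9.

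The study performed RNA immunoprecipitation and sequencing (RIP-seq) on nuclei of RH30 cells, a line established from an alveolar rhabdomyosarcoma and positive for the fusion of PAX3 with FOXO1. The series held 6 samples of this 1 line with no treatment named in the labels, 3 DDX5_IP samples made with a DDX5 antibody and 3 INPUT samples made with none. The samples of each kind are described as biological replicates, and 1 peak list for each DDX5_IP sample was used, while INPUT values were not analysed here. The libraries were unstranded, so RNA of both strands of the locus was counted together.

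At this locus in mammals, DLK1 and RTL1 are expressed from the paternal chromosome. MEG3, MEG8 and MEG9 are long non-coding RNAs (lncRNAs) expressed from the maternal one, and their introns and exons host a large group of C/D box small nucleolar RNAs (snoRNAs) and of microRNAs (miRNAs). DDX5 is a DEAD-box helicase of the nucleus that acts in splicing, transcription and miRNA processing.

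The genes were placed on GRCh38 by GENCODE. DLK1 (ENSG00000185559), which encodes a transmembrane protein related to the Notch ligands, spans chr14:100725705-100738224 on the plus strand. MEG3 (ENSG00000214548) spans chr14:100779410-100861031 on the plus strand and has 50 annotated transcripts. RTL1 (ENSG00000254656), which encodes a retrotransposon-derived protein needed in the mouse placenta, spans chr14:100879753-100903722 on the minus strand. MEG8 (ENSG00000225746) spans chr14:100894770-101038859 on the plus strand, with 52 transcripts and with 46 snoRNA and 14 miRNA genes inside it. MEG9 (ENSG00000223403) spans chr14:101042908-101072937 on the plus strand and holds 23 miRNA genes.

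Of the 27 regions formed by merging overlapping intervals of the listed genes, 3 were found in all 3 lists, 2 in MEG3 and 1 in MEG8. The sequences of the MEG3 regions are shown because they are parts of the locus that every DDX5_IP list held. Each is the part common to the 3 intervals, read 5′ to 3′ on the plus strand of GRCh38, and capitals mark the 21 bases centred on each list's summit. The first lies at chr14:100833996-100834184 and the second at chr14:100853062-100853202.
MEG3 first region: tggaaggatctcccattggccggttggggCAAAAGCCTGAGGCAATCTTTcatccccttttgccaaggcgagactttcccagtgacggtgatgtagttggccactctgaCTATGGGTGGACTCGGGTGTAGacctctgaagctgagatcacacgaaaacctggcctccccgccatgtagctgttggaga
MEG3 second region: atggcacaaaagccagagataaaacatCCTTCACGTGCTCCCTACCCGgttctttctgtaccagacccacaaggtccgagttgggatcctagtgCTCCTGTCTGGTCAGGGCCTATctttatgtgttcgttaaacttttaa

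The interval with the highest fold between DLK1 and MEG9 lies between MEG3 and RTL1 and is shown next, as the part common to replicates 2 and 1, at chr14:100873555-100873850.
Between MEG3 and RTL1: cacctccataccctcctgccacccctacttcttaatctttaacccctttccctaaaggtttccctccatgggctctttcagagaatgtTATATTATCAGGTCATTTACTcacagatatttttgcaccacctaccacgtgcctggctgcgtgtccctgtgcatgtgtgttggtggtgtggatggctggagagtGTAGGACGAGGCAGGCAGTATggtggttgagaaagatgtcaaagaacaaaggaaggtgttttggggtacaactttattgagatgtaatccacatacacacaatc

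Lists differed in length, with 23715, 23651 and 45832 intervals in replicates 1, 2 and 3. The depth behind them is unknown, and the control that the peak caller was given is not stated in the sources used here. The listed genes held 14, 14 and 11 of these intervals, a mean of 13.0 ± 1.73 (SD, n = 3). Replicate 3 thus had the longest list and the fewest intervals in the locus. Per 1000 intervals of a list, the listed genes held 0.590, 0.592 and 0.240 in replicates 1, 2 and 3, whereas all other lncRNA genes held 106.7, 123.9 and 106.0. Cutting each list to the length of the shortest by q-value left 14, 14 and 4 intervals in the listed genes. Of 8 myogenic genes (MYOD1, MYOG, DES, MYMK, CHRNG, PAX3, FOXO1 and FGFR4), 6 had an interval in every list and all 8 had one in at least 1 list. For all protein-coding genes, 25.7% had an interval in every list and 48.4% had none in any. MYOD1, the muscle lineage regulator, had 1 interval in each list. A peak list does not measure RNA level, so little RNA and little association with DDX5 cannot be told apart.

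MEG3 and MEG8 were the 2 of 5 members with an interval in every list. Among all annotated lncRNA genes 3.82% had one in every list, and among lncRNA genes at least as long as MEG3 9.28% did. The corresponding share of protein-coding genes, the class of DLK1 and RTL1, was 25.7%. MEG8 had 6, 7 and 6 intervals in replicates 1, 2 and 3 (mean 6.33 ± 0.577, SD, n = 3), and MEG3 had 8, 5 and 4 (5.67 ± 2.08, SD, n = 3). The counts of MEG3 and MEG8 overlapped between lists, so their order did not hold beyond the spread. Per length the order was turned, with 0.980, 0.613 and 0.490 intervals per 10 kb of MEG3 and 0.416, 0.486 and 0.416 per 10 kb of MEG8. RTL1 had 0, 2 and 1 intervals, and MEG9 had 0, 0 and 1. One interval of replicate 3 lay in both RTL1 and MEG8, which overlap on opposite strands, and was counted in each.

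**Figure D1:**
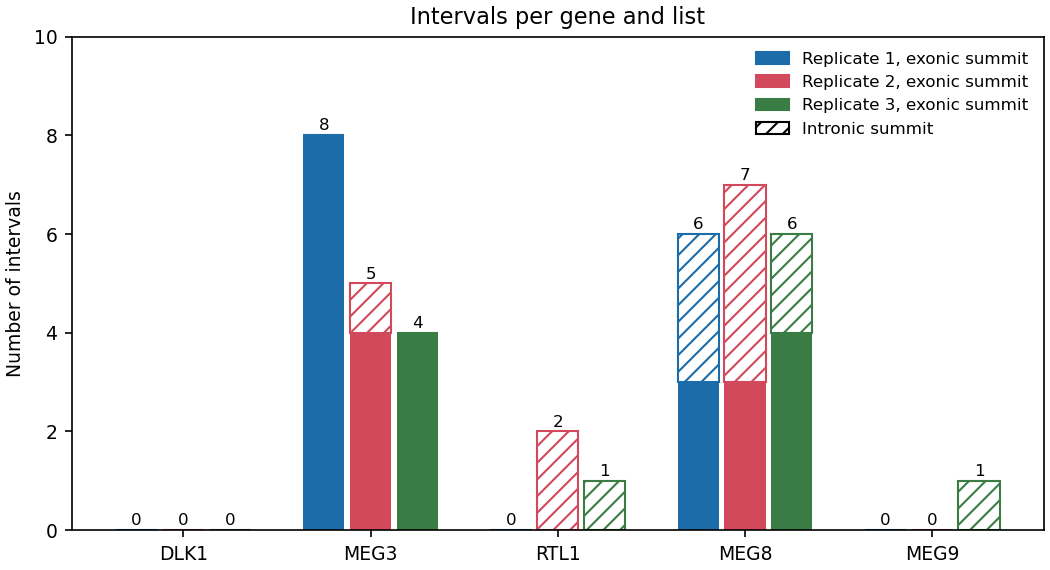
Number of peak intervals (vertical axis) with a summit in each of the 5 genes, with 1 bar for each DDX5_IP replicate; solid bars are exonic summits and hatched bars intronic ones. MEG3 and MEG8 have bars in all 3 replicates, DLK1 has none, and RTL1 and MEG9 hold intronic summits alone.

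DLK1, the protein-coding gene at the left end, had no interval in any list, and 48.4% of protein-coding genes had none either. The nearest summits to the left of DLK1 were 371.9, 366.4 and 356.6 kb away in replicates 1, 2 and 3. To the right of MEG9 they were 907.5, 741.2 and 853.1 kb away. BEGAIN, DIO3 and DIO3OS, imprinted neighbours of the locus named here after their values were seen, had no interval in any list. The intervals of the locus thus formed a group between the right part of MEG3 and MEG9.

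**Figure D2:**
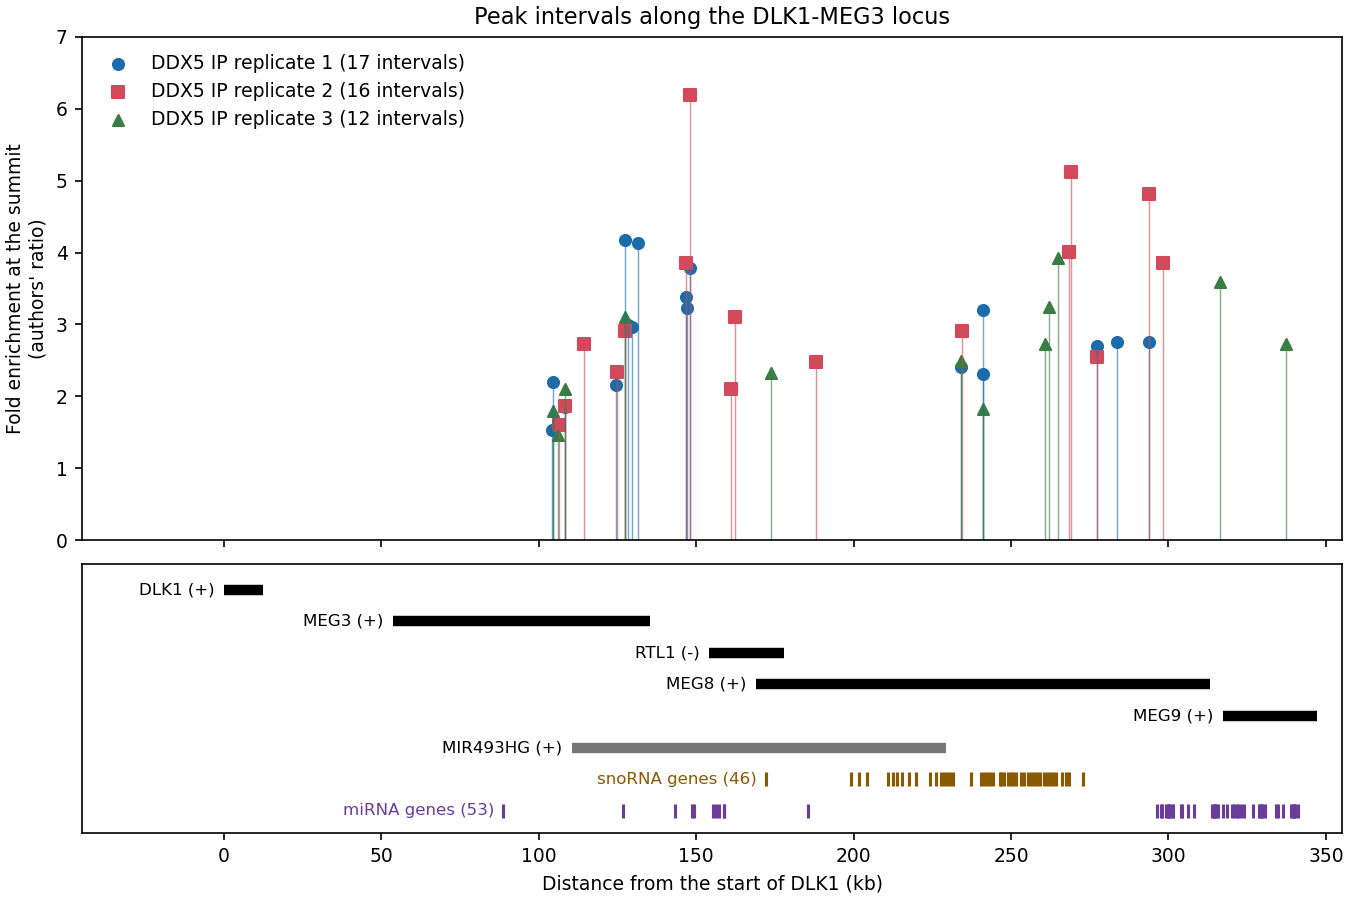
Upper panel, fold at the summit (vertical axis, the authors' ratio) of the 45 intervals between DLK1 and MEG9 against distance from the start of DLK1 in kb, with 1 symbol for each DDX5_IP replicate. Lower panel, the 5 gene bodies, the overlapping lncRNA gene MIR493HG, and the 46 snoRNA and 53 miRNA genes. No summit lies in DLK1 or the left part of MEG3, and 3 groups of symbols from all replicates stand over MEG3 and MEG8.

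MEG3, a lncRNA known for growth suppression and loss in tumours, had all 17 of its intervals in its right-hand part. GENCODE's canonical transcript covers the first 49.776 kb of the gene and held none of them. The first summit was 50.577 kb from the gene start and 802 bp beyond the canonical end, and the other 16 followed within the remaining 31.846 kb. The RefSeq record of MEG3 is shorter, chr14:100826108-100861026, and contained all 17. Of these summits 16 were exonic in at least 1 annotated transcript, 8 of them in a last exon of 11.749 kb and 5 in another transcript's last exon of 4.295 kb. The exception was an intronic interval of replicate 2 at chr14:100840226-100840394, with a fold of 2.73. A lncRNA annotated on the opposite strand, ENSG00000258663, and MIR493HG, a lncRNA gene named as a miRNA host, both also covered 9 of the 17 summits, in their introns, and the strands could not be told apart.

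Fold is the authors' value for each interval, the enrichment at the summit over the peak caller's background, and is used here to describe intervals within a list. In the first shared MEG3 region the fold was 1.85, 1.87 and 2.10 in replicates 1, 2 and 3 (mean 1.94 ± 0.140, SD, n = 3), and the 3 summits lay within 81 bp. In the second it was 4.17, 2.91 and 3.10 (3.40 ± 0.679, SD, n = 3), with summits within 68 bp. Every list thus gave the second region a higher fold than the first. The second region lay 612 to 680 bp beyond MIR770, a miRNA gene inside MEG3. Regions found in 2 lists were chr14:100830184-100830292 (mean fold 2.00 in replicates 1 and 3), chr14:100831933-100832084 (mean 1.53 in replicates 2 and 3) and chr14:100850272-100850561 (2.16 in replicate 1 and 2.33 in replicate 2). In each list, every MEG3 interval to the left of chr14:100840226 had a lower fold than the second shared region. In replicate 1 there were 3 more MEG3 intervals to the right of it, with folds of 2.99, 2.97 and 4.13, and no other list had one there.

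MEG8, the lncRNA that hosts the SNORD113 and SNORD114 genes, had 19 intervals, 10 exonic and 9 intronic, with 3, 3 and 4 exonic ones in replicates 1, 2 and 3. The canonical transcript of MEG8 spans 89.017 kb and held 9 of them, and 10 lay in the 51.921 kb beyond its end. In the region found in all lists, chr14:100959811-100960163, the fold was 2.40, 2.91 and 2.50 (mean 2.61 ± 0.271, SD, n = 3). The summits of that region spread over 189 bp, further than in the MEG3 regions, and lay 2655 to 2844 bp beyond SNORD114-6. At 90% identity over at least 80% of the interval, the replicate 2 interval of this region matched 1747 other places in the genome and that of replicate 3 matched 146. With at least 50% of the interval matched, that of replicate 1 had 3660 such places. How reads with several matches were treated is not given in the sources used here, and reads of the region and of its copies cannot be told apart here. Without intervals that had such copies at 50%, the regions found in all lists were the 2 of MEG3, and MEG3 and MEG8 each still had an interval in every list.

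Further along MEG8, the group near SNORD114-10 was found in replicates 1 and 3 and not in replicate 2. Its intervals were chr14:100966642-100966735 (fold 3.20) and chr14:100966851-100966956 (2.31) in replicate 1 and chr14:100966723-100966842 (1.82) in replicate 3. Replicate 2 held the highest folds of the gene. These were 5.12 at chr14:100994545-100994688, 4.81 at chr14:101019314-101019612 and 4.01 at chr14:100994094-100994452. The interval of fold 5.12, at the 91.1th percentile of its list, matched 270 other places in the genome at 90% identity. Besides the region near SNORD114-10, MEG8 regions found in 2 lists were chr14:101002861-101003049 (2.71 in replicate 1 and 2.55 in replicate 2) and chr14:101019314-101019612 (2.75 in replicate 1 and 4.81 in replicate 2), both intronic. Replicate 3 alone had intervals from chr14:100986607 to chr14:100990730, with folds of 2.73, 3.25 and 3.93. The longest stretch of the gene with no summit, 46.22 kb, lay between the summits at 100913672 and 100959892 and contained 16 snoRNA genes, from SNORD113-1 to SNORD114-6. The RefSeq record of MEG8, chr14:100889649-100999113, contained 13 of the 19 intervals.

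RTL1 had 3 intervals, each intronic and each in 1 list. They lay at chr14:100886477-100886831 (fold 2.10) and chr14:100887633-100888106 (3.11) in replicate 2, and at chr14:100899523-100899667 (2.32) in replicate 3. All 3 summits also lay in introns of MIR493HG, which runs on the opposite strand, so their strand of origin could not be told. MEG9 had 1 interval, in replicate 3 at chr14:101062753-101062996, intronic, with a fold of 2.73. The shorter RefSeq record of MEG9 did not include it.

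Between the listed genes, 6 more intervals were found. Of these, 5 lay in introns of MIR493HG between MEG3 and RTL1, in replicates 1 and 2 and not in replicate 3. One of the regions had a fold of 3.38 in replicate 1 and 3.85 in replicate 2, and the other had 3.78 in replicate 1 and 6.19 in replicate 2. The value of 6.19 was the highest fold between DLK1 and MEG9, at the 96.4th percentile of its list, and its −log10 q of 20.0 was also the highest. The fifth, of replicate 1, had a fold of 3.22. These summits lay 736 to 2133 bp before MIR337. The remaining interval lay between MEG8 and MEG9 in replicate 3, at chr14:101041984-101042071, with a fold of 3.59.

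At the interval of highest −log10 q in each list, MEG8 had folds of 2.40, 5.12 and 2.50 (mean 3.34 ± 1.54, SD, n = 3). MEG3 had 4.17, 1.87 and 2.10 (2.71 ± 1.27, SD, n = 3). All 3 of these MEG8 intervals matched other places in the genome over at least 50% of their length, and the MEG3 ones did not. Reads of MEG8 and of the copies cannot be told apart there, so these folds may not be those of MEG8 alone. The 2 genes overlapped, and in each a single list stood above the other 2, replicate 2 for MEG8 and replicate 1 for MEG3. Over all intervals, the median fold of MEG8 was 2.73, 3.85 and 2.62 in replicates 1, 2 and 3, and the highest was 3.20, 5.12 and 3.93. The median of MEG3 was 2.58, 2.33 and 1.95, and the highest was 4.17, 2.91 and 3.10. The median was thus higher in MEG8 than in MEG3 in each list, a difference that was not tested.

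Set against the rest of each list, the median fold of the intervals in the listed genes was 2.73 against 2.66 in replicate 1, 2.82 against 3.21 in replicate 2 and 2.50 against 2.91 in replicate 3. The difference averaged -0.245 ± 0.272 (SD, n = 3) and was positive in 1 of 3 lists. It did not exceed the spread between lists (exact two-sided sign-flip permutation test over 3 lists, p = 0.5, adjusted p = 0.5 over 2 tests, smallest possible p 0.25). Single intervals of the locus stood between the 0.247th and the 91.1th percentile of their lists by fold, with a median at 39.1. Median width was 169 bp, and 28 of 39 intervals had a single summit. In 23 of 39 (59.0%) the pair of fold and p-value was shared with at least 9 other summits of the list. The same held for 60.1, 64.9 and 72.9% of all intervals in replicates 1, 2 and 3.

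**Figure D3:**
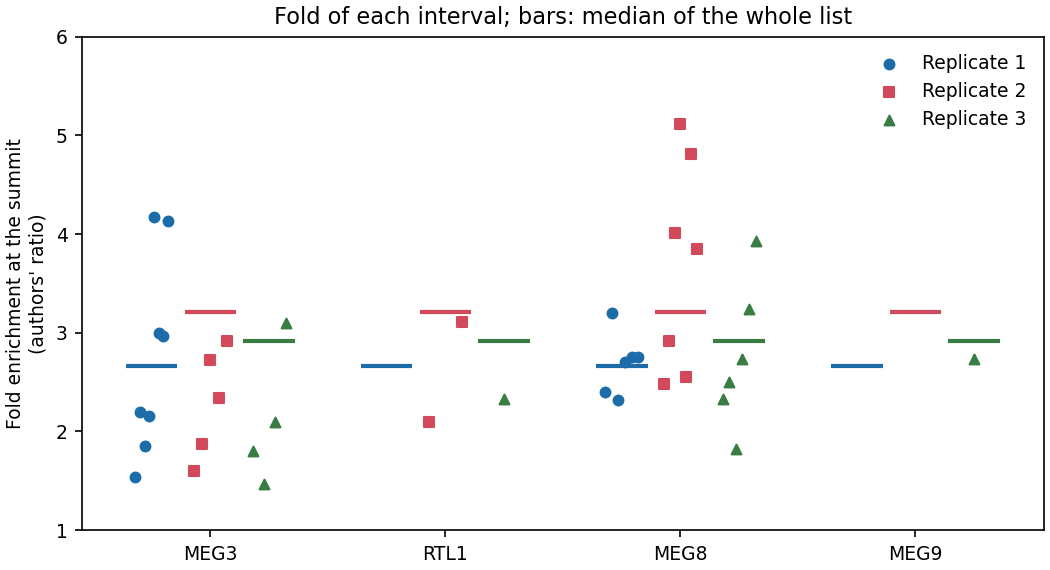
Fold at the summit (vertical axis, the authors' ratio, starting at 1) of every interval in MEG3, RTL1, MEG8 and MEG9, with 1 symbol for each DDX5_IP replicate and a bar at the median of that replicate's whole list. Points of MEG3 and MEG8 lie on both sides of the bars in replicate 1, and in replicates 2 and 3 those of MEG3 lie below the bars apart from 1 of replicate 3.

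Exonic summits made up 26 of 39 intervals (66.7%), or 78.6, 50.0 and 72.7% in replicates 1, 2 and 3 (mean 67.1 ± 15.1%, SD, n = 3). Exons of any annotated transcript were counted, and they cover 28.5% of MEG3 and 19.1% of MEG8. All 17 MEG3 summits lay in the last 31.846 kb of that gene, 8 and 5 of them in last exons of 11.749 and 4.295 kb. How much of that part is exonic is not given here, so 28.5% is no background for it. In the canonical transcripts alone 3 of 39 summits were exonic, all in MEG8. For the 3 lncRNA members together the exonic share was 78.6% against 34.8% in all other lncRNA genes in replicate 1, 58.3% against 26.7% in replicate 2 and 72.7% against 30.9% in replicate 3. The difference averaged 39.1 ± 6.55 percentage points (SD, n = 3) and was positive in 3 of 3 lists. How much of the other lncRNA gene bodies is covered by exons is not given here, so the difference is not adjusted for it. The exact two-sided sign-flip permutation test gave its smallest possible p, 0.25, with an adjusted p of 0.5 over 2 tests, so 3 lists cannot pass 0.05. Where the other lncRNA intervals were limited to those outside protein-coding gene bodies, a choice made after seeing the data, their exonic shares were 56.4, 31.0 and 43.1%, and the difference averaged 26.4 ± 3.82 percentage points (SD, n = 3).

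Recurrence between lists was limited. Of 27 merged regions in the listed genes, 18 came from 1 list, 6 from 2 and 3 from all, so 11.1% were found in all lists against 13.6% of all 60437 merged regions. MEG3 had 2 of its 10 regions in all lists, and MEG8 had 1 of its 14. From each list, 3 intervals of the locus touched intervals of both other lists, which was 21.4, 21.4 and 27.3% of those of replicates 1, 2 and 3.

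Of the small RNA genes, none held a summit: 0 of 39 lay inside a snoRNA or miRNA gene, and such genes cover 2.48% of the bases of the 5 gene bodies. Within 200 bp were 2 of 39 summits (5.13%), against 14.3% of all bases of the gene bodies. Within 500 bp were 7 of 39 (17.9%), against 28.3% of bases. Median distance was 2564 bp for the summits and 2108 bp for all bases. The 2 near summits were both in MEG8. One, of replicate 1, lay 106 bp before SNORD114-10. The other, of replicate 2, lay 90 bp before ENSG00000222095, an unnamed snoRNA record that its interval overlapped.

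By gene, MEG8 summits lay 90 to 10791 bp from a small RNA gene with a median of 1618 bp, against 818 bp for all its bases, and 36.8% of them were within 500 bp, against 39.3% of its bases. MEG3 summits lay 612 to 18355 bp away with a median of 12132 bp, against 10696 bp for all its bases. The 3 RTL1 summits lay 1618 to 3183 bp away and the MEG9 summit 857 bp from MIR377. The part of the locus from SNORD112 to the last SNORD114 gene, 95.391 kb with 40 named snoRNA genes, held 11 summits. The part from MIR379 to MIR656, 44.736 kb with 42 miRNA genes, held 3. Mature miRNAs of the genes nearest to the second MEG3 region and to the highest fold between MEG3 and RTL1 are given for orientation, from RefSeq (GRCh38.p14), with the seed (bases 2 to 8) in capitals. Their seeds differ.
hsa-miR-770-5p: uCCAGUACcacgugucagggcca
hsa-miR-337-5p: gAACGGCUucauacaggaguu
hsa-miR-337-3p: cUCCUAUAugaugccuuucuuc

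**Figure D4:**
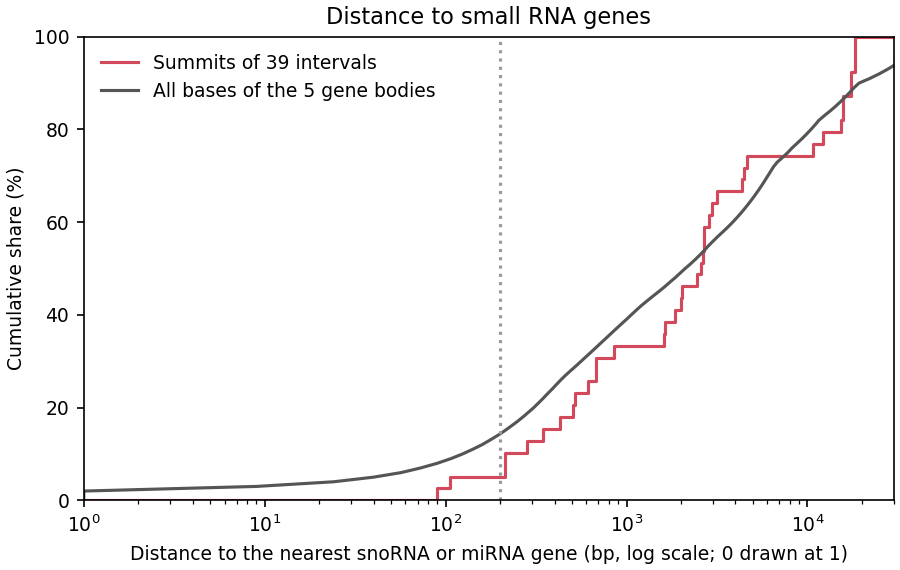
Cumulative share (vertical axis, percent) of the 39 summits and of all bases of the 5 gene bodies against distance to the nearest snoRNA or miRNA gene in bp on a log axis; the dotted line marks 200 bp. The line of the summits lies below that of the bases up to beyond 500 bp, with 5.13% against 14.3% at the dotted line.

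Base composition at the summits was described in windows of 201 bases. Guanine and cytosine made up a median of 44.8% of the windows at the 39 summits (25.4 to 60.2%), against 47.8% of all windows of the gene bodies. The direction differed by gene, since MEG3 summits had a median of 45.3% against 52.2% for all its windows, while MEG8 summits had 43.8% against 36.8%. The MEG3 windows covered the whole gene, whereas its summits all lay in the right-hand part, whose own composition is not given here. Runs of at least 8 A or T bases were present in 4 of 39 summit windows, all of replicate 2, or 10.3% against 6.79% of all windows.

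Other imprinted genes were set beside the locus. Of 48, protein-coding and lncRNA genes together, 16 had an interval in every list, 27 in at least 1 and 21 in none. Genes that overlap were each counted, so some of the 16 rest on the same intervals. Over all protein-coding genes the shares were 25.7% in every list and 48.4% in none. Over all lncRNA genes they were 3.82% and 86.9%. SNHG14, the lncRNA that hosts the snoRNA array of the Prader-Willi locus, had 41, 35 and 49 intervals in replicates 1, 2 and 3, with a fold at the highest −log10 q of 13.0 ± 4.42 (SD, n = 3). It thus had more intervals in each list than all members of the DLK1-MEG3 locus together, in counts not scaled by gene length. The best folds of SNHG14 exceeded those of MEG8 and MEG3 in every list. Those of MEG8 came from intervals with copies elsewhere in the genome, and copies of the SNHG14 intervals were not sought. PEG10, a retrotransposon-derived gene like RTL1, had 9, 5 and 10 intervals and a best fold of 8.68 ± 5.28, at an interval that SGCE shares. COPG2 had a best fold of 5.04 ± 3.25, IGF2, the fetal growth factor gene, 4.80 ± 1.79 and ZNF331 4.22 ± 0.773 (SD, n = 3 each).

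Of 26 protein-coding genes of pathways linked to the members, 13 had an interval in every list and 8 in none. The shares over all protein-coding genes were 25.7% in every list and 48.4% in none, and the difference was not tested. JARID2, a cofactor of Polycomb repressive complex 2 reported to bind MEG3, had 8, 10 and 18 intervals and a best fold of 4.71 ± 1.93. The Notch receptor genes NOTCH3 and NOTCH2 had best folds of 4.57 ± 1.46 and 4.33 ± 1.84, and JAG2, a Notch ligand gene, 4.39 ± 0.860 (SD, n = 3 each). DLK1, the member with a role in that pathway, had no interval. It was not alone in this, since other Notch receptor, ligand and target genes were among the 8 with none.

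MEG8 was the member with most intervals, and 86 of 18866 lncRNA genes, itself included, had at least its total of 19. MEG3, with 17, was reached by 111. By Euclidean distance over 6 values, the log2(1 + count) of exonic and of intronic intervals in each list, the 5 lncRNA genes most like MEG8 were ENSG00000259370 (distance 1.45), ZNF710-AS1 (1.51), NAV2-AS2 (1.56), ELF3-AS1 (1.66) and MVP-DT (1.67). ENSG00000259370 had 6, 5 and 7 intervals in replicates 1, 2 and 3, and ZNF710-AS1 had 5, 5 and 7. Neither the ranks nor the distances were scaled by length, and these 5 genes were 5.69 to 56.4 kb long against 144.09 kb for MEG8. With unstranded libraries, an interval in such a gene may also come from RNA of the other strand.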

How the data were processed

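RNA that co-purified with DDX5 was measured in 3 DDX5_IP samples of RH30 nuclear extracts, with unstranded libraries per the labels' protocols. Per the submitters' processing notes, bcl2fastq 2.20, FastQC 0.11.8, cutadapt 1.11, STAR 2.6.1d, SAMtools 1.10, MACS2 2.2.7.1 and GRCh38/hg38 were used. Parameters and the control library of the peak calls are not given in the sources used here. The deposited lists hold 1 set of intervals per sample, with several summits in some. Fold at a summit is a ratio made by the authors, and the p-values and q-values were deposited on the −log10 scale. The deposited score was not used. Depth is unknown, so no counting interval was computed.

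Summits that shared an interval were counted once, at the summit of highest −log10 q. Gene bodies and exons came from GENCODE version 44, and intervals sharing at least 1 bp were merged into regions. The 3 differences within lists had their signs flipped in every way for an exact two-sided permutation p, with Benjamini-Hochberg adjustment over 2 tests. Copies of intervals in the genome were sought with BLAST+ 2.17.0 (word size 28, E-value up to 1e-05). Sequences came from GRCh38 and RefSeq, and those of some intervals are not reported here. Python 3.11.15, NumPy 2.4.6, pandas 2.3.3 and matplotlib 3.10.9 were used, and the counting was tested on simulated data.

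The 5 members and the gene lists were chosen with earlier results of these data known. The rule for names took all members, small RNA genes within 200 bp of a summit, overlapping lncRNA records, at most 6 imprinted genes and 4 pathway genes with an interval in every list (those of highest mean best fold), and the 5 lncRNA genes most like the member with most intervals. The nearest small RNA genes are also named as landmarks.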

Additional observations from a re-analysis of the deposited data

How the results depend on the processing

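Across 77 alternatives to 7 results, 17 values moved and 0 changed sign. The other 60 kept the side of the test's threshold where there was a test. Where there was none, they lay within 1.5 times the reported count or 1 SD of the reported share. For the 2 tested differences no alternative could cross 0.05, since the smallest possible p with 3 lists was 0.25. Keeping that side therefore says nothing of how stable they were. Of the alternatives, 18 were added after seeing the data. With q under 1e-05 the listed genes held 6.33 intervals per list, and with a fold of at least 4 they held 1.67, against 13.0. Without tied pairs (the same fold and p at 10 or more summits of a list) they held 5.33. Regions found in all lists numbered 1, 0 and 1 under the same settings, against 3. With 1 replicate left out, the regions found in all remaining lists ranged from 4 to 6. The exonic share was 83.3% with q under 1e-05, 83.3% with a fold of at least 4, 88.9% without tied pairs and 7.79% in canonical exons alone, against 67.1%. With a fold of at least 4, 0 members had an interval in every list, against 2, and replicate 3 had none at all. Without replicate 1 it was 3, since RTL1 had intervals in both other lists. The share of summits near a small RNA gene was 16.7% with a fold of at least 4, 0.0% without tied pairs, 18.0% within 500 bp and 0.0% inside the gene, against 4.76%. These settings keep fewer intervals, fewer lists or another distance by their construction. The difference in median fold stayed negative under every alternative run but its size changed by over 1.5 times, with values from -0.602 (q under 1e-05) to -0.160 (without replicate 3), against -0.245, and -0.401 without replicate 1. The difference in exonic share stayed positive under the alternatives run for it. It ranged from 26.4 percentage points (other lncRNA intervals outside protein-coding gene bodies) to 61.8 (without tied pairs), against 39.1. Canonical exons alone were not among these alternatives, so the sign of the difference under that setting is not known. With every summit counted, the share near a small RNA gene was 7.76%. No paired analysis was possible because the only groups that share replicate numbers are DDX5_IP and INPUT, and INPUT values were not analysed here. Depth is unknown, so an interval missing from a list may lie below what that library could detect.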
